A study of Mus musculus with 16 samples.

Results

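The regulators of the G1 phase of the cell cycle were followed in lungs of mice that lack T1α (Pdpn), an apical membrane protein of the alveolar type I cell. The 10 genes are Ccnd1, Ccnd2, Ccnd3, Ccne1, Cdk4, Cdkn1a, Cdkn1b, Cdkn2c, Rb1 and Trp53, and a probe set (a group of oligonucleotides that reads 1 transcript) was taken when the platform annotation gave one of these symbols and no other. Of the 12488 probe sets of the array, 14 were found, for 9 of the 10 genes, and 5 genes had 2 each. Trp53 itself had none, so that its transcript was not measured under its own symbol. Its regulators and targets, and the probe sets of the pseudogene Trp53-ps, are given instead.

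Groups of whole lungs were compared on Affymetrix Murine Genome U74Av2 arrays, 16 in all: 3 T1α(-/-) and 3 T1α(+/+) lungs at term, taken within minutes of delivery, and 5 T1α(-/-) and 5 T1α(+/+) lungs at fetal day E18.5. The null allele is constitutive, the fetuses came from heterozygous crosses, and the sources used here name neither strain nor litter nor sex. T1α signal was 1.4 to 30.0 on the (-/-) arrays and 39.7 to 214.9 on the (+/+) arrays. Replicates are named by the letters of the labels, A to H for (-/-) and I to P for (+/+). Values are signal intensities, scaled by the authors so that each array has the same trimmed mean. In whole lung, fewer cells of a type and less RNA per cell cannot be told apart.

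Progress through G1 is driven by the D-type cyclins with Cdk4 and then by cyclin E with Cdk2. These kinases phosphorylate the retinoblastoma protein Rb, which in its unphosphorylated form holds back the E2F transcription factors and with them the genes of DNA synthesis. The INK4 inhibitors, such as p18 (Cdkn2c), bind Cdk4 and Cdk6, while p21 (Cdkn1a) and p27 (Cdkn1b) bind cyclin-kinase complexes more widely, and p21 is a direct transcriptional target of p53. Around birth the distal lung slows its proliferation as the alveolar epithelium differentiates.

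RefSeq promoter windows (GRCm38.p6) matched 7 of the 10 genes, with 10 windows. The 250 bases before the start are shown for the genes called around birth, Ccne1 and Cdk4, and for Cdkn1a as the p53 target. Capitals mark every match, on either strand, to GGGCGG (a GC box), CACGTG (an E-box) or CATG and CATG with 6 bases between them (the core of a p53 site).
Ccne1, chr7:38107491-38107740, minus strand: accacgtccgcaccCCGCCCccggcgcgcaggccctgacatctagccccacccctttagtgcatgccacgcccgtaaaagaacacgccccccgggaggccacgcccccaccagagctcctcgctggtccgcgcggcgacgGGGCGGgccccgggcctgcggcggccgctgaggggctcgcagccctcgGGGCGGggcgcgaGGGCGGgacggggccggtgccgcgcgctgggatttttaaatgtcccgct
Cdk4, chr10:127063285-127063534, plus strand: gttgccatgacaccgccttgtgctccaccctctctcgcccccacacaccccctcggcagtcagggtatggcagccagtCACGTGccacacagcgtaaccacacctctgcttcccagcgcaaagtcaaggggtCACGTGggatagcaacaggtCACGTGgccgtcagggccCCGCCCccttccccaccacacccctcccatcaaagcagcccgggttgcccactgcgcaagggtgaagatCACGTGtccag
Cdkn1a, chr17:29090729-29090978, plus strand: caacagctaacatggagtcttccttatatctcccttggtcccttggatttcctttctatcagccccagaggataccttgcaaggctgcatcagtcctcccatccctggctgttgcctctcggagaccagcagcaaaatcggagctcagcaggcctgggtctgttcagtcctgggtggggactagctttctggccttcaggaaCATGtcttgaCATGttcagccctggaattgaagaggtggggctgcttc
The Ccne1 window held 4 GC boxes and the Cdk4 window 4 E-boxes and 1 GC box. This Cdkn1a window held 1 p53 core starting 48 bases before the start. The other Cdkn1a window, chr17:29093519-29093768, is not shown and held 2 GC boxes and no p53 core. Of 32851 such windows of the genome, 32.7% held a GC box, 6.02% an E-box and 0.490% the p53 core. An E2F site, searched as TTTCCCGC, TTTCGCGC, TTTGCCGC or TTTGGCGC and present in 1.86% of all windows, was found in none of the 10 windows of these genes. A match is a description of the letters and not of binding.

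Among the members bright enough for the fit across the array, Ccne1, encoding cyclin E1, and Cdk4, on 1 of its 2 probe sets, fell around birth in both genotypes. Ccne1 signal was 99.6, 125.3 and 128.2 in (-/-) lungs at term, against 328.4, 327.6, 352.9, 245.6 and 233.4 in (-/-) lungs at E18.5. In (+/+) lungs it was 86.6, 96.3 and 103.0 at term, against 268.8, 250.9, 232.9, 350.0 and 237.3 at E18.5. Every term lung was thus below every E18.5 lung, whatever its genotype. The log2 fold change, term over E18.5 on the scale log2(signal + 16), was -1.22 (SE 0.21) in (-/-) lungs, with an adjusted p of 0.00181 (limma, Benjamini-Hochberg over all probe sets tested). In (+/+) lungs it was -1.34 (SE 0.24, limma adjusted p = 0.00197).

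Cdk4, the kinase partner of the D cyclins, had signals of 421.4, 354.9 and 391.1 in (-/-) lungs at term, against 1066.1, 695.2, 852.6, 816.0 and 828.3 at E18.5 (probe set 160538_at). In (+/+) lungs they were 257.1, 331.9 and 481.6 at term, against 976.8, 964.3, 745.9, 720.1 and 642.3 at E18.5. Again the times did not overlap in either genotype. The log2 fold change was -1.09 (SE 0.20, limma adjusted p = 0.00274) in (-/-) lungs and -1.17 (SE 0.28, limma adjusted p = 0.0105) in (+/+) lungs. The second Cdk4 probe set, 101017_at, with signals of 42.7 to 139.8 at term and 47.6 to 135.9 at E18.5, overlapped between the times in both genotypes and did not pass the test.

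**Figure D1:**
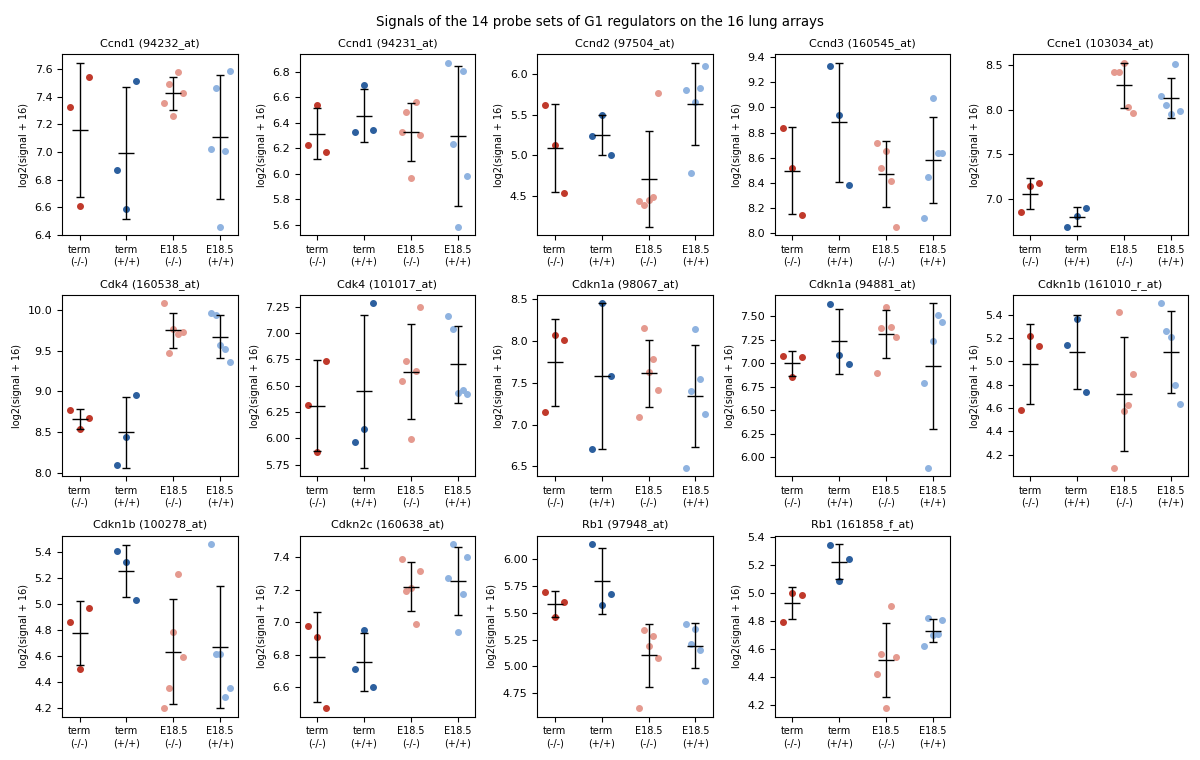
Each panel shows 1 of the 14 probe sets, with log2(signal + 16) on the vertical axis (scaled per panel) and the groups on the horizontal axis. Points are arrays, black marks the mean ± SD (n = 3 at term, n = 5 at E18.5). Ccne1 and Cdk4 (160538_at) lie lower at term than at E18.5 in both genotypes, with no overlap.

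The (+/+) changes were the less stable of these. With the Xist signal as a covariate, which stands in for sex and was 6.7 to 10.2 in (+/+) lungs at term against 14.3 to 80.0 at E18.5, the change was -1.07 for Ccne1 and -1.29 for Cdk4, both with a limma adjusted p of 0.107. Without (+/+) replicate N the Cdk4 change was -0.97 (limma adjusted p = 0.0927), and by the methods' t-test its adjusted p was 0.0603. In (-/-) lungs both genes passed under every alternative run.

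Cdkn2c, encoding the Cdk4 inhibitor p18, stood at 110.0, 104.1 and 72.5 in (-/-) lungs at term, against 151.5, 129.9, 131.8, 111.2 and 143.3 at E18.5. In (+/+) lungs it was 88.6, 107.8 and 81.0 at term, against 138.4, 162.8, 106.6, 128.6 and 152.8 at E18.5. The times were apart in (-/-) lungs by the narrow gap between 110.0 and 111.2, and overlapped in (+/+) lungs through replicates O and K. The log2 fold change was -0.43 (SE 0.19) in (-/-) lungs with an unadjusted limma p under 0.05 that did not pass after adjustment (adjusted p = 0.113). In (+/+) lungs it was -0.50 (SE 0.24, limma adjusted p = 0.149).

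Rb1, the substrate of these kinases, had signals under the level required for the fit and was compared by exact permutation tests alone. Probe set 97948_at gave 35.9, 27.9 and 32.4 in (-/-) lungs at term, against 8.4, 24.5, 20.6, 23.0 and 17.9 at E18.5. In (+/+) lungs it gave 54.6, 31.5 and 35.0 at term, against 26.2, 20.9, 24.8, 19.6 and 13.1 at E18.5. On this probe set every term lung was above every E18.5 lung of its genotype. The log2 difference was 0.48 in (-/-) lungs and 0.60 in (+/+) lungs (2-sided exact p = 0.0357 each, the smallest that 3 against 5 arrays allow). The second probe set, 161858_f_at, was 11.8 to 16 in (-/-) lungs at term against 2.1 to 14.1 at E18.5, which overlapped (log2 difference 0.40, exact p = 0.0714). In (+/+) lungs it was 18.1 to 24.6 at term against 8.6 to 12.3 at E18.5, with no overlap (log2 difference 0.49, exact p = 0.0357). At E18.5 the unspiked controls averaged 35.3 on (+/+) replicate I and 5.43 to 11.1 on the other arrays. Signals of 161858_f_at were near this background. Those of 97948_at were low but above the controls of their own array, except on replicate I. At signals this low the added constant of 16 sets the size of a log2 difference.

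Over time, 9 probe sets of 6 genes were bright enough to be tested: those of Ccnd1, Ccnd3, Ccne1, Cdk4, Cdkn1a and Cdkn2c. In (-/-) lungs 2 of the 9 were called at an adjusted p under 0.05, both lower at term, where 26.7% of all tested probe sets were called and 13.0% were called lower. In (+/+) lungs 2 of 9 were called, both lower, against 18.6% of all called and 7.99% called lower. At an unadjusted limma p under 0.05 there were 3 of 9 in (-/-) lungs (40.4% of all) and 2 of 9 in (+/+) lungs (34.4% of all). Counted in either direction, these shares are near or below those of the whole array. The shares called lower, 2 of 9 in each genotype, are above those of the array but rest on 2 probe sets. The median log2 fold change of the members was -0.31 in (-/-) lungs, beside -0.06 over all tested probe sets, and -0.11 in (+/+) lungs, beside -0.04. Of the 14 probe sets with or without enough signal, 1 was higher and 3 lower at term with no overlap in (-/-) lungs (22.3% of 12422 probe sets lay apart in either direction), and 2 were higher and 2 lower in (+/+) lungs (18.5%).

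**Figure D2:**
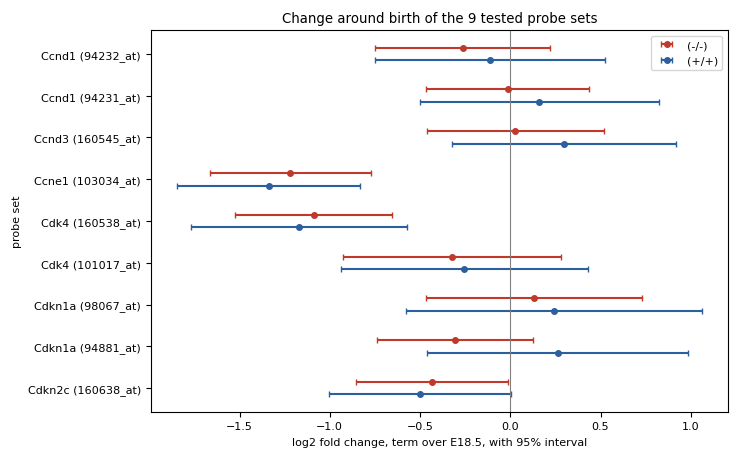
Log2 fold change, term over E18.5, of the 9 tested probe sets (vertical axis) in (-/-) and (+/+) lungs, each with its 95% interval from limma. The intervals of Ccne1 and Cdk4 (160538_at) lie below 0 in both genotypes, and that of Cdkn2c narrowly so in (-/-) lungs.

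The fall of Ccne1 and Cdk4 was not shown to differ between genotypes. The genotype difference at term minus that at E18.5 was 0.12 for Ccne1, with a 95% interval of -0.48 to 0.72, and 0.08 for Cdk4, with an interval of -0.60 to 0.76. The sign for Cdk4 turned without (+/+) replicate N. A p that misses the threshold does not show that the genotypes changed alike, and the intervals give what 16 arrays leave room for. Of the 9 members none was called in this contrast (0% of 6458 probe sets at an adjusted p, limma), and none reached an unadjusted p under 0.05 (1.47% of all). Their median was -0.11, beside -0.01 over all.

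Between the genotypes none of the 9 members tested passed at either time. At term no member was called between (-/-) and (+/+) lungs (limma adjusted p, 0% of 5885 probe sets called), and none had an unadjusted p under 0.05 (0.680% of all). The log2 fold changes, (-/-) over (+/+), ran from -0.38 (Ccnd3) to 0.26 (Ccne1), with a median of 0.03 beside 0.01 over all. The 95% intervals reached down to -1.07 for Ccnd3 and up to 1.11 for Cdkn1a, which is what 3 lungs per genotype leave room for. At E18.5 no member was called either (0.0340% of 5879 probe sets called), nor at an unadjusted p under 0.05 (5.31% of all). There the log2 fold changes ran from -0.11 (Ccnd3) to 0.34 (Cdkn1a, 94881_at), with a median of 0.08 beside 0.04 over all, and the intervals reached from -0.59 to 0.92. The methods' t-test with adjustment called none of the 9, which do not include Rb1, at either time. The sign of 5 of the 9 differences at each time changed under at least 1 alternative.

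**Figure D3:**
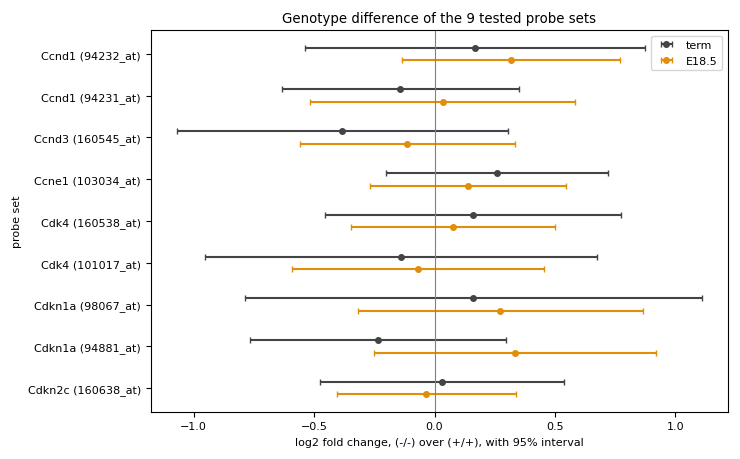
Log2 fold change, (-/-) over (+/+), of the 9 tested probe sets (vertical axis) at term and at E18.5, each with its 95% interval from limma. Every interval spans 0, and those at term are the wider except on Ccnd1 94231_at and Cdkn1a 94881_at.

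Among the D-type cyclins, which link growth signals to Cdk4, Ccnd1 had signals of 144.9, 81.8 and 170.2 in (-/-) lungs at term and 101.1, 80.4 and 167.2 in (+/+) lungs (94232_at). At E18.5 they were 148.1, 164.4, 137.8, 175.1 and 156.4 in (-/-) lungs, and 113.8, 160.9, 71.9, 112.6 and 176.2 in (+/+) lungs. The (-/-) lungs lay within the range of the (+/+) lungs at E18.5, and the spread was 14.4 (SD) in (-/-) against 41.8 in (+/+) lungs. The second probe set, 94231_at, was 31.9 to 101.1 over all arrays and overlapped in every pair of groups. Ccnd3 had signals of 440.4, 350.0 and 267.1 in (-/-) lungs at term, against 625.0, 474.3 and 317.8 in (+/+) lungs. At E18.5 it was 404.1, 350.0, 386.8, 325.6 and 249.0 in (-/-) lungs, against 262.9, 332.5, 521.4, 382.8 and 381.8 in (+/+) lungs. Its group means were 353 ± 86.7 in (-/-) and 472 ± 154 in (+/+) lungs at term, and 343 ± 60.9 in (-/-) and 376 ± 94.7 in (+/+) lungs at E18.5 (SD, n = 3 and 5), and neighbouring groups in that order overlapped (exact permutation p = 0.4 between genotypes at term and 0.595 at E18.5).

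Ccnd2, the third D-type cyclin, was the member with the lowest exact p between genotypes at E18.5. It read 5.7, 5.0, 5.9, 6.4 and 38.3 in (-/-) lungs, against 40.0, 11.4, 34.6, 40.9 and 52.9 in (+/+) lungs. Of the 5 (-/-) lungs, A to D lay below every (+/+) lung, and E lay among them. On A to D the bacterial control probe sets that were not spiked averaged 5.81, 11.1, 10.3 and 9.06, so that Ccnd2 was there at or below background and the size of a difference is not a measured fold. The log2 difference was -0.93 (2-sided exact permutation p = 0.0238, unadjusted, 1 of 14 member probe sets under 0.05, beside 4.44% of all 12422 probe sets), and it was below the signal required for the limma fit. Centring each array on its median gave -0.88 and quantile normalization -0.81, both with an exact p of 0.0635, while the size ran from -0.39 with a constant of 64 to -1.94 with none. On (+/+) replicate I these controls averaged 35.3, against 3.58 to 11.1 on the other 15 arrays, so that a signal of 40.0 there is near background. Without I the difference was -0.89 (exact p = 0.0476). At term Ccnd2 was 33.0, 19.1 and 7.1 in (-/-) lungs and 21.9, 29.0 and 16 in (+/+) lungs, which overlapped. No Ccnd2 groups lay apart in any comparison.

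Cdkn1a, encoding p21, overlapped between genotypes on both of its probe sets at both times. Probe set 98067_at read 126.1, 254.3 and 241.6 in (-/-) lungs at term, against 89.0, 334.8 and 175.9 in (+/+) lungs. At E18.5 it read 120.2, 270.3, 181.4, 205.4 and 154.0 in (-/-) lungs, against 73.5, 153.3, 266.7, 171.7 and 124.1 in (+/+) lungs. The (+/+) lungs at term spanned the widest range, and the 3 (-/-) lungs fell inside it. Probe set 94881_at read 119.5, 99.5 and 118.3 in (-/-) lungs at term, against 182.5, 119.8 and 111.1 in (+/+) lungs. At E18.5 it read 103.5, 150.5, 177.5, 151.3 and 139.2 in (-/-) lungs, against 94.5, 43.3, 134.9, 166.6 and 157.3 in (+/+) lungs. At term the means of the probe sets differed in opposite directions, 207 ± 70.6 in (-/-) against 200 ± 125 in (+/+) lungs for 98067_at and 112 ± 11.2 against 138 ± 39.0 for 94881_at (SD, n = 3), and neither difference exceeded the spread (exact p = 0.8 and 0.4). The study did not call p21 present on its arrays. By northern and western blot it reported p21 as lower in (-/-) lungs at term.

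Cdkn1b, encoding p27, stayed between 1.0 and 29.2 on all arrays and both probe sets, under the signal required for the fit. On 100278_at the genotypes lay apart at term, with 13.0, 6.6 and 15.3 in (-/-) lungs and 26.4, 23.9 and 16.7 in (+/+) lungs. The log2 difference was -0.48 (exact p = 0.1, the smallest that 3 against 3 arrays allow). On these (-/-) arrays the unspiked controls averaged 4.66, 6.54 and 4.72, so that the lowest value, 6.6 on replicate G, is at background. The other probe set, 161010_r_at, read 8.0, 21.1 and 19.0 in (-/-) lungs and 19.3, 25.1 and 10.6 in (+/+) lungs and overlapped. The study did not call p27 present on its arrays, and by northern blot it reported p27 mRNA at term as not altered. Rb1 on 161858_f_at also lay apart at term, with 11.8, 16 and 15.8 in (-/-) lungs and 24.6, 18.1 and 21.9 in (+/+) lungs (log2 difference -0.30, exact p = 0.1), while on 97948_at the genotypes overlapped. These 2 of 14 probe sets, both lower in (-/-), stand beside 4.53% of all probe sets whose genotypes did not overlap at term. The study listed Rb1, on 161858_f_at, among the detected genes that were lower in (-/-) lungs at term, without correcting for multiple comparisons. By real time RT-PCR it reported the level of Rb as variable between (-/-) lungs. At E18.5 none of the 14 lay apart, beside 0.757% of all.

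No probe set carried the symbol of p53 alone. A pair of probe sets is annotated to Trp53-ps, a pseudogene of p53, and whether they read p53 transcripts as well cannot be told from the annotation. They are not counted as members. One of them, 101618_r_at, read 95.2, 125.2 and 106.7 in (-/-) lungs at term, against 223.0, 187.3, 192.2, 187.6 and 160.5 at E18.5. In (+/+) lungs it read 72.3, 77.3 and 111.5 at term, against 189.0, 150.7, 138.3, 124.7 and 157.3 at E18.5. It was lower at term without overlap in both genotypes, with a log2 fold change of -0.72 in (-/-) lungs (limma adjusted p = 0.0143) and -0.71 in (+/+) lungs (limma adjusted p = 0.0519). At E18.5 the genotypes differed by 0.30 (exact p = 0.0317), which did not pass across the array (limma adjusted p = 0.867). The study listed 101618_r_at, with no gene symbol, among the probe sets that differed at E18.5, without correcting for multiple comparisons. It also listed a p53 variant as higher in (-/-) lungs at E18.5, without naming the probe set of that variant. The other, 101617_s_at, read 15.8 to 25.1 in (-/-) lungs at term against 27.5 to 58.1 at E18.5, with no overlap (log2 difference -0.63, exact p = 0.0357). In (+/+) lungs it read 21.0 to 39.1 at term against 21.1 to 52.5 at E18.5, which overlapped (-0.12, exact p = 0.607). At term its genotype difference was -0.32, (-/-) over (+/+), where 101618_r_at gave 0.29, and both overlapped.

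Of the p53 regulators and targets, a list of 29 genes of which 21 were on the array, 3 of 16 tested rose at term in (-/-) lungs and 4 of 17 in (+/+) lungs, and none fell. Of all probe sets tested, 13.8% were called higher at term in (-/-) and 10.6% in (+/+) lungs, so that the (-/-) count is near that of the array. Mdm2, the ubiquitin ligase that degrades p53 and is itself a p53 target, was 168 to 286.5 in (-/-) lungs at term against 62.9 to 95 at E18.5. In (+/+) lungs it was 133.8 to 228.1 at term against 33.4 to 89.1 at E18.5. Its log2 fold change was 1.42 in both genotypes (limma adjusted p = 0.00115 in (-/-) and 0.00418 in (+/+) lungs). Mdm4, a relative of Mdm2 that restrains p53, was 141.2 to 152.3 in (-/-) lungs at term against 32.7 to 44.5 at E18.5, a log2 fold change of 1.62 (limma adjusted p = 0.000313). In (+/+) lungs Mdm4 was 94.1 to 171.9 at term against 32.9 to 81 at E18.5. Gadd45a, a p53 target of the stress response, was 101.5 to 271.4 in (+/+) lungs at term against 33.7 to 96.5 at E18.5 (log2 fold change 1.45, limma adjusted p = 0.00745). In (-/-) lungs Gadd45a was 114.8 to 185.5 at term against 32.4 to 72 at E18.5. The median of the list was 0.30 in (-/-) and 0.44 in (+/+) lungs, beside -0.06 and -0.04 over all. The (+/+) count was 1 by the methods' t-test, 1 without replicate N and 0 with the Xist covariate. Without N Gadd45a stood at 1.10 (limma adjusted p = 0.0857).

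Many genes of S, G2 and M phase, which act after the G1 regulators, fell at term. Of 16 tested, 9 fell in (-/-) lungs and 12 in (+/+) lungs and none rose, where 13.0% of all probe sets were called lower in (-/-) and 7.99% in (+/+) lungs. The medians were -0.81 in (-/-) and -1.37 in (+/+) lungs, beside -0.06 and -0.04 over all. Mcm5, a subunit of the replicative helicase, was 31.7 to 65.9 in (-/-) lungs at term against 155.2 to 259.7 at E18.5 (log2 fold change -1.83, limma adjusted p = 0.000564). In (+/+) lungs Mcm5 was 22.2 to 47.2 at term against 99.1 to 263.7 at E18.5. Top2a, the topoisomerase of dividing cells, was 7.9 to 12.3 in (+/+) lungs at term against 61.1 to 128.1 at E18.5 (-2.04, limma adjusted p = 0.000358). In (-/-) lungs Top2a was 4.8 to 30.2 at term against 46.4 to 75.7 at E18.5. Cdc20, an activator of the anaphase-promoting complex, changed by -1.46 in (-/-) lungs (limma adjusted p = 0.00160) and by -1.96 in (+/+) lungs (limma adjusted p = 0.000665). The counts were smaller under other settings, with 5 in each genotype under a stricter filter, 5 in (-/-) and 3 in (+/+) lungs by the methods' t-test, and 5 in (-/-) lungs without replicate G.

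Among the other inhibitors and the factors of p27 turnover, 1 of 6 tested rose and 1 fell in each genotype, which is near the shares of the whole array (13.8% called higher and 13.0% lower in (-/-), 10.6% and 7.99% in (+/+) lungs). Cdkn2b, encoding the INK4 inhibitor p15, was 111 to 197.8 in (-/-) lungs at term against 66.1 to 88.1 at E18.5 (log2 fold change 0.79, limma adjusted p = 0.0152), and 118.4 to 238.1 in (+/+) lungs at term against 60.1 to 125.8 at E18.5 (0.92, limma adjusted p = 0.0310). This call was lost without (-/-) replicate F or G (limma adjusted p = 0.0528 and 0.0779) and without (+/+) replicate J, L, M, N or O (limma adjusted p from 0.0616 to 0.204). Cks1b, a cofactor of the ligase that degrades p27, was 59.7 to 109.5 in (-/-) lungs at term against 180.5 to 344.1 at E18.5 (-1.35, limma adjusted p = 0.00238). In (+/+) lungs it changed by -1.60 (limma adjusted p = 0.00401). The count that fell was 2 without (-/-) replicate E, and the count that rose was 2 without (+/+) replicate K.

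E2f5, a repressive E2F factor, was 75 to 103.6 in (-/-) lungs at term against 24.6 to 35.7 at E18.5 (log2 fold change 1.16, limma adjusted p = 0.00252), and it changed by 1.19 in (+/+) lungs (limma adjusted p = 0.0232). The (+/+) call was lost without replicate L, N or O (limma adjusted p from 0.0507 to 0.157). E2f5 belongs to a list of pocket proteins, E2F and DP factors that also holds histone-binding partners of Rb. In (-/-) lungs 2 of 5 tested genes of this list rose and none fell. Beside E2f5 this was Rbbp7, a histone-binding partner of Rb, with 0.89 (limma adjusted p = 0.0194, but 0.0824 without F and 0.0730 without H). In (+/+) lungs 1 of 4 rose. Lists this short are not told apart from the 13.8% of all probe sets called higher in (-/-) and 10.6% in (+/+) lungs. Of 5 other G1 cyclins, kinases and phosphatases tested, none was called in (-/-) lungs, where Ccndbp1, which binds D-type cyclins, had the lowest p (-0.49, limma adjusted p = 0.114). In (+/+) lungs Cdc37, the chaperone partner that stabilizes Cdk4, was the 1 that fell, with -1.31 (limma adjusted p = 0.0133, but 0.104 without N and 0.0846 without O), and Cdc25a, a phosphatase that activates Cdk2, gave -0.60 (limma adjusted p = 0.0924). Without (+/+) replicate P the count that fell was 2.

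**Figure D4:**
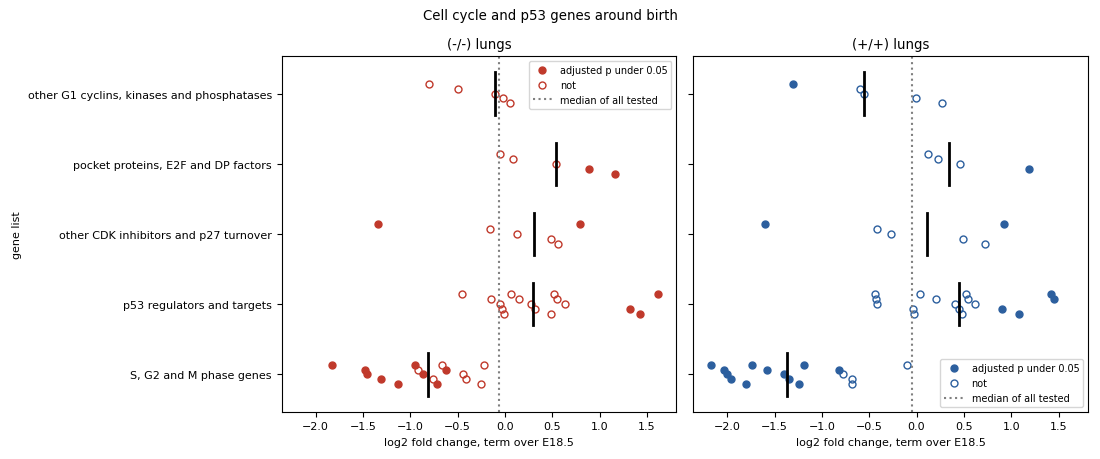
Log2 fold change, term over E18.5 (horizontal axis), of the tested genes of 5 lists (rows) in (-/-) lungs at left and (+/+) lungs at right. Filled points passed an adjusted p of 0.05 in limma, bars are list medians and the dotted line is the median of all tested probe sets. S, G2 and M phase genes lie to the left of 0 in both genotypes, while the genes called among p53 regulators and targets lie to the right.

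Between genotypes no gene of the 5 lists was called at either time (limma adjusted p under 0.05). At an unadjusted limma p under 0.05 at E18.5 there were 3 of 16 S, G2 and M phase genes and 1 of 13 of the p53 list. Of the other G1 genes 1 of 5 did so, and none of the remaining lists. All were lower in (-/-) lungs, beside 5.31% of all tested probe sets in either direction. At E18.5 the S, G2 and M phase genes had a median log2 fold change of -0.42, (-/-) over (+/+), beside 0.04 over all, and 2 of 16 were above 0. Cdk1, the kinase of mitotic entry, was 164.2 to 273 in (-/-) lungs against 243.1 to 423 in (+/+) lungs (-0.51, limma adjusted p = 0.858). Mki67, a marker of cycling cells, was 36 to 129.4 in (-/-) lungs against 85.5 to 150.5 in (+/+) lungs (-0.63, limma adjusted p = 0.858). Cdc25a gave -0.43 and Rrm2b, a p53-induced subunit of ribonucleotide reductase, gave -0.62, with a limma adjusted p of 0.858 each, and these were the genes of lowest p in their lists. At term the S, G2 and M phase genes had a median of 0.00 over 10 tested, beside 0.01 over all, and no gene of the 5 lists reached an unadjusted p under 0.05. These 10 are fewer than the 16 tested at E18.5, so the medians are not over the same genes. In the genotype difference at term minus that at E18.5, 14 of 16 tested were above 0, with a median of 0.49 beside -0.01 over all. None of the 16 was called there or reached an unadjusted limma p under 0.05.

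Markers of other cell types moved with time. The summed signal of 8 erythroid markers was 6750 to 11152 in (-/-) lungs at term against 17139.3 to 30534 at E18.5. In (+/+) lungs it was 7218 to 7773.7 at term against 12936.3 to 30841.6 at E18.5. Most of this sum was Hba-a1, at 6159.4 to 10575.8 in (-/-) lungs at term against 15727.3 to 29523.9 at E18.5. Of 6 erythroid markers tested, 2 were called lower in each genotype. Klf1, too dim to be tested, had higher medians at term, 48.7 against 25.1 in (-/-) and 47.9 against 34.1 in (+/+) lungs. Lung epithelial markers did not move one way. Of 7 tested, 1 was called higher and 3 lower at term in each genotype (limma adjusted p under 0.05), with medians of -0.07 in (-/-) and -0.00249 in (+/+) lungs. Sftpc, a surfactant protein of type II cells, changed by -1.45 in each genotype, while Scgb1a1, the secretory product of club cells, was 4238.8 to 5490 in (-/-) lungs at term against 2403.4 to 3139.3 at E18.5. Of 8 fibroblast and smooth muscle markers, 2 fell in each genotype and 1 rose in (-/-) lungs, with medians of -0.71 in (-/-) and -0.59 in (+/+) lungs, and of the endothelial markers 1 rose in each, with medians of 0.29 and 0.35 in (-/-) and (+/+) lungs. Beside these counts, 13.8% of all tested probe sets were called higher and 13.0% lower at term in (-/-) lungs. In (+/+) lungs the shares were 10.6% and 7.99%. The part of these markers in the fall of Ccne1, Cdk4 and the S, G2 and M phase genes was not tested.

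Some markers of blood cells also differed between genotypes before adjustment, and none was called after it. At E18.5, 6 of the 9 macrophage markers on the array were tested. All 6 were above 0, (-/-) over (+/+), with a median log2 fold change of 0.55. Of these, 3 had an unadjusted limma p under 0.05 (5.31% of all) and none passed after adjustment. The others, too dim to be tested, had lower medians in (-/-) lungs: Mrc1 29.2 against 36.2, Marco 6.2 against 7.5 and Adgre1 8.8 against 9.2. C1qa, a complement subunit of macrophages, was 158.7 to 245.4 in (-/-) against 67.7 to 149.2 in (+/+) lungs, with no overlap. At term all 4 neutrophil markers tested, of 8 on the array, were below 0, with a median of -0.77. Of these, 2 had an unadjusted limma p under 0.05 (0.680% of all) and none passed after adjustment. Of those too dim to be tested, Mpo (18 against 14.2) and Ly6g (15 against 10.5) had higher medians in (-/-) lungs. Elane (39.4 against 45.3) and Ngp (13.2 against 16.9) had lower ones. S100a9, a calcium-binding protein of neutrophils, was 100.3 to 153.8 in (-/-) against 193.7 to 288.3 in (+/+) lungs at term. Their part in the Ccnd2, Cdk1 and Mki67 values at E18.5, and in those of Cdkn1b and Rb1 at term, was not tested.

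The ratio of 3' to 5' GAPDH probe sets, a sign of RNA integrity, was 2.63 on (-/-) replicate G and 2.55 on (+/+) replicate O, both at term, and 0.827 to 1.84 on the other arrays. With this ratio as a covariate the Ccne1 change was -1.23 in (-/-) and -1.33 in (+/+) lungs, and that of Cdk4 -1.05 in (-/-) and -1.01 in (+/+) lungs.

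The array-wide pattern most like each tested member was sought by Pearson r of log2(signal + 16) over the 16 arrays, as a description only, since the highest of 5864 or 5865 values is large by selection and the arrays share the change around birth. Cdk4 ran closest with Cdca4 (r = 0.98) and Ccne1 with Cyc1 (r = 0.97). Ccnd1 ran closest with Emg1 (r = 0.90), Cdkn1a with Prkag1 (r = 0.88), Cdkn2c with Psmd1 (r = 0.88) and Ccnd3 with Nsmce3 (r = 0.81).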

How the data were processed

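Total RNA of each lung was hybridized to 1 array. The authors derived the deposited signal intensities with Microarray Suite 5.0 and scaled each array (mean signal 99.98 to 99.99 here after trimming 2% at each end). The study also filtered on detection p-values, and p21 and p27 did not pass that filter. These p-values were not used here, so a signal above the level below is not a detection call. Arrays were grouped by their labels. Members and lists were chosen with earlier results of these data known. Named genes were all member probe sets, up to 2 genes per list and comparison with the lowest limma p under 0.05, and the most alike probe set. Trp53-ps was added because Trp53 had no probe set, with its values seen.

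Signals were used as log2(signal + 16). Probe sets were tested when the median of 1 group exceeded the level that 45.4% of values exceed, with lmFit and eBayes (trend) of limma 3.58.1 in R 4.3.3 and Benjamini-Hochberg adjustment over 5879 (E18.5), 5885 (term), 6458 (difference of genotype effects), 6145 ((+/+) over time) and 6193 ((-/-) over time) probe sets. Lists used 1 probe set per gene, the brightest. Single probe sets were compared by 2-sided exact permutation tests, whose smallest p is 0.00794 at E18.5 and 0.1 at term. The methods' t-test was the equal-variance test on signals. The scripts were tested on simulated data. Each array is taken as 1 animal, and p-values measure the spread between these arrays. Precision is limited by how many arrays there are. The times share no array and no batch is given, so time and batch cannot be told apart.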

Additional observations from a re-analysis of the deposited data

Results flagged for a closer look

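Of 32 groups of 5 arrays checked over the member probe sets and those of Trp53-ps, 2 held an array far from the others by Dixon's criterion, which flags about 1 in 20 groups by chance. Ccnd2 was 38.3 on (-/-) replicate E at E18.5, where the other (-/-) arrays were 5.0 to 6.4 (gap over range 0.958). Cdkn1b (100278_at) was 28.0 on (+/+) replicate I at E18.5, where the other (+/+) arrays were 3.5 to 8.6 (gap over range 0.792), and on this array the unspiked bacterial controls averaged 35.3.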

How the results depend on the processing

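The alternatives were quantile normalization, centring of each array on its median, other constants, no filter and a stricter one, 1 fit of all arrays, no intensity trend, array weights, the methods' t-test, the GAPDH ratio or Xist as a covariate, and leaving out each array. Centring moved the median of all tested probe sets over time from -0.06 to 0.04 in (-/-) and from -0.04 to 0.10 in (+/+) lungs. The count of 0 members called between genotypes at E18.5, at term and in the difference of the genotype effects held under all of them, and leaving out 1 array gave 0 to 0. The count over time in (-/-) lungs was 2 without any 1 array, and the median of the members there, -0.31, was 0.00714 with no filter, over all 14 probe sets. In (+/+) lungs the count of 2 was 1 by the methods' t-test, 0 with Xist, and 1 to 2 on leaving out 1 array. Leaving out 1 array, the member medians ran from 0.00156 to 0.160 at E18.5, from -0.07 to 0.16 at term, from -0.21 to 0.00388 in the difference of genotype effects, from -0.35 to -0.13 over time in (-/-) and from -0.38 to 0.00541 in (+/+) lungs. The Cdk4 difference of genotype effects was -0.12 to 0.31 on leaving out 1 array, the sign turning without (+/+) replicate N. In the exact tests, the Ccnd2 difference at E18.5 was -0.88 with centring and -0.81 with quantile normalization, past the threshold in neither, and -1.19 to -0.81 on leaving out 1 array. The Rb1 change over time (97948_at) was then 0.36 to 0.55 in (-/-) and 0.43 to 0.71 in (+/+) lungs, and 0.43 to 0.56 on 161858_f_at in (+/+) lungs, all with fewer arrays than an exact p under 0.05 needs. At term Rb1 (161858_f_at) was -0.36 to -0.23 and Cdkn1b (100278_at) -0.59 to -0.34. Of the list genes named as called over time in (+/+) lungs, Top2a alone passed wherever it was tested. In (-/-) lungs Mcm5, Cdc20, Cks1b, Mdm4, Mdm2 and E2f5 did, and Cdkn2b and Rbbp7 did not. The causes were not tested. No paired analysis was possible because the replicate letters differ between all groups.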
